A study of Homo sapiens with 17 samples.

Results

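The genes described here are the 42 members of the ATP-binding cassette (ABC) transporter family that the arrays name by a symbol of the form ABC, a subfamily letter from A to G and a number, out of 17958 genes with a single symbol. ABC transporters bind and hydrolyse ATP to move a substrate across a membrane, and they are sorted into subfamilies by sequence. In epithelial and tumour cells they are best known for exporting cholesterol and phospholipid (ABCA1, ABCG1), for secreting surfactant lipid in the alveolus (ABCA3) and for pumping drugs and glutathione conjugates out of the cell (ABCB1, ABCG2 and the ABCC proteins). Others work in mitochondria, lysosomes or peroxisomes, and ABCE1 and the ABCF proteins span no membrane and act on ribosomes. ABCA1 was singled out because its level was seen to be higher with LKB1 in both cell lines, so its LKB1 differences are given as a description with no test, and the other 41 members were tested.

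RNA came from A549 and H2122, human lung adenocarcinoma lines in which the gene for the kinase LKB1, STK11, is inactive. Each line had been transduced with a pBABE retrovirus that carried wild-type LKB1 (called LKB1 here), the kinase-dead mutant LKB1 K78I, or no insert (pBABE). All cells were selected in 1.0 µg/mL puromycin for 2 weeks, grown in medium with 5% fetal bovine serum and harvested in logarithmic growth, so the controls had been through the same virus and drug. There were 3 arrays of each construct, except 2 of pBABE in H2122, which makes 17 arrays (9 of A549 and 8 of H2122). The labels do not say whether arrays of a group stem from separate transductions or cultures. The p-values therefore speak only for how these arrays vary, which may be technical. Levels are log2 values, on which a difference of 1 is a doubling, and they are compared between arrays for 1 gene, not between genes.

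Levels of STK11 were checked against the labels first. In A549 the gene read 9.42, 10.23 and 9.62 on the LKB1 arrays, 10.54, 7.14 and 10.42 on the K78I arrays, and 6.88, 7.38 and 10.52 on the pBABE arrays. The library labelled A549 K78I replicate 2 was therefore low where its construct should express the transcript, and the library labelled A549 pBABE replicate 3 was high where it should not. In H2122 the levels were 11.20, 11.35 and 11.26 with LKB1, 11.27, 11.31 and 11.26 with K78I, and 6.33 and 6.22 with pBABE, as labelled. For 3 of the H2122 arrays (pBABE replicate 2, LKB1 replicate 3, K78I replicate 3) the source name disagrees with the title, description and transduction label on the construct, and the title was followed. The source names give LKB1, K78I and pBABE for them, in that order. STK11 at 6.22 on pBABE replicate 2 and at 11.26 on K78I replicate 3 goes with the titles and against the source names. For LKB1 replicate 3 it cannot tell, since LKB1 and K78I arrays read alike. Cell cycle genes averaged 0.79 below the line mean on A549 K78I replicate 2, 0.35 below it on A549 pBABE replicate 1 and 1.43 below it on H2122 pBABE replicate 2, against −0.06 to 0.32 on the other arrays. Many of the results below are also given without these arrays.

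An LKB1 effect below is the mean of the LKB1 arrays minus the average of the K78I and pBABE means of that line. It was tested with limma across all 17958 genes, with Benjamini-Hochberg adjusted p under 0.05 as the call. In A549, 3 of the 41 tested members were called: ABCA3 and ABCC8 were higher and ABCD3 was lower. That is 7.32% of the members, beside 8.44% of all genes (5.49% higher, 2.95% lower). In H2122, ABCA13 alone was called, as higher, which is 2.44% of the members beside 7.28% of all genes (4.99% higher, 2.29% lower). The median LKB1 effect of the tested members was −0.04 in A549 and −0.08 in H2122, against −0.02 and −0.04 for all genes. In the mean of both lines ABCA13 was called higher and ABCD3 lower, 4.88% of the tested members beside 13.6% of all genes (8.25% higher, 5.32% lower). In A549 these counts depend on the fit. With K78I alone as the control 0 of the 41 members were called, beside 5.25% of all genes. None was called without LKB1 replicate 1, beside 4.7% of all genes. A fit per line called 1 (2.44%), beside 4.87%, and array weights called 14 (34.1%), beside 21.4%.

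In A549 all LKB1 arrays lay above all controls for 4 tested members (ABCA3, ABCC5, ABCC8, ABCG1), beside 8.46% of all genes, and below them for 2 (ABCA4, ABCD3), beside 6.65%. In H2122 they lay above for 1 (ABCA13), beside 8.54%, and below for 1 (ABCA3), beside 8.82%.

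**Figure D1:**
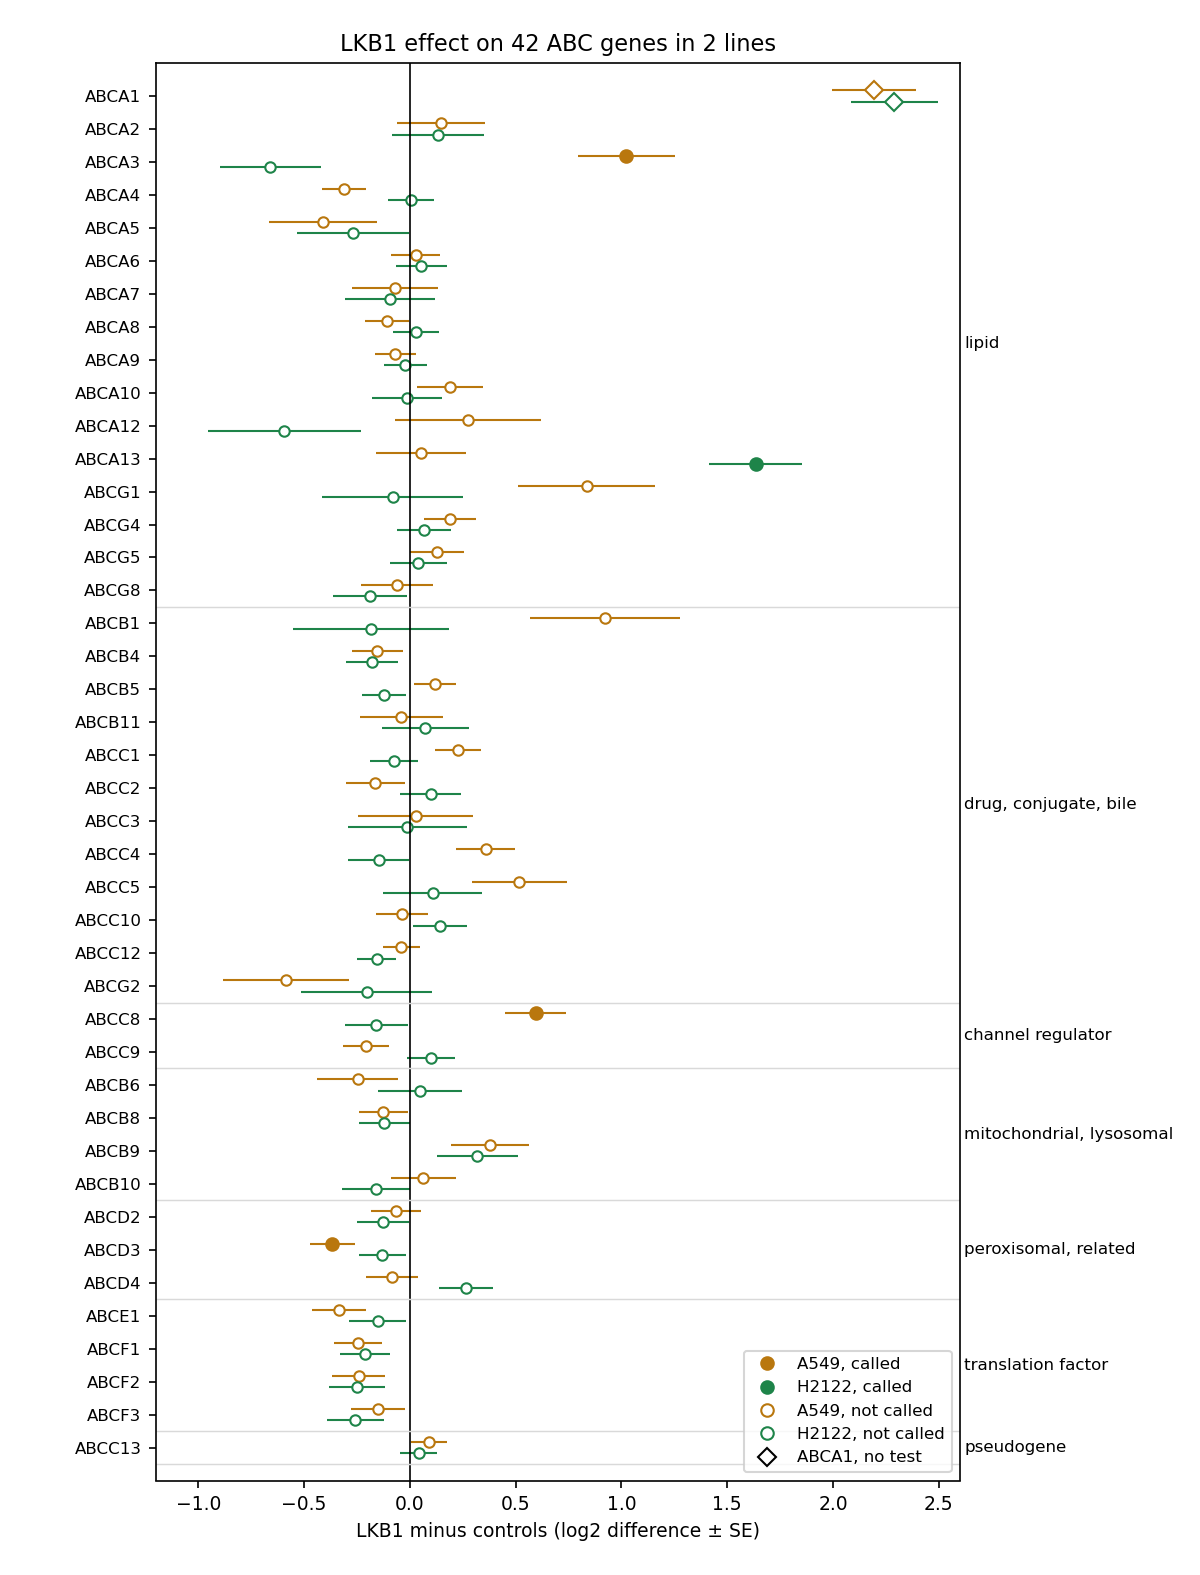
LKB1 effect (LKB1 minus the average of the K78I and pBABE means, log2 difference, horizontal axis) with its standard error for all 42 ABC genes in A549 (orange) and H2122 (green), grouped by role. Filled points passed the test at an adjusted p under 0.05. The open diamonds of ABCA1 carry no test and lie at 2.19 and 2.29, while the other 41 genes lie between −0.66 and 1.63.

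Of the 16 members that handle lipid, ABCA1 had the highest LKB1 effect in both lines. ABCA1 loads cholesterol and phospholipid onto apolipoprotein A-I, the first step in making high-density lipoprotein, and its transcription in cholesterol-loaded cells is driven by the nuclear receptors LXR and RXR. In A549 its level was 7.46, 7.90 and 7.50 on the LKB1 arrays, against 5.68, 5.00 and 5.57 on the K78I arrays and 5.46, 5.30 and 5.54 on the pBABE arrays. In H2122 it was 9.06, 8.66 and 8.77 on the LKB1 arrays, against 6.98, 6.53 and 6.24 on the K78I arrays and 6.13 and 6.85 on the pBABE arrays. Every LKB1 array was above every control array of its line. ABCA1 was singled out for its rise on these same arrays, so neither this order nor its rank among the lipid members is a test.

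In A549 the ABCA1 mean was 7.62 ± 0.24 with LKB1 (SD, n = 3) and 5.43 ± 0.24 in the controls (SD, n = 6), and the LKB1 effect was 2.19 ± 0.20 (SE) or 4.57-fold. In H2122 the mean was 8.83 ± 0.21 with LKB1 (SD, n = 3) and 6.55 ± 0.37 in the controls (SD, n = 5), and the effect was 2.29 ± 0.21 (SE) or 4.89-fold. The effect in A549 minus that in H2122 was −0.10 ± 0.29. Without the 2 arrays that went against their STK11 label the A549 effect was 2.12, and without the 3 arrays of disagreeing labels the H2122 effect was 2.42. Grouping H2122 by source name instead, which goes against the STK11 levels given above, gave 1.38.

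The controls were also compared with each other. In A549 the STK11 levels of K78I replicate 2 and pBABE replicate 3 go against their labels, so that comparison is one of libraries as labelled. ABCA1 on K78I arrays minus pBABE arrays was −0.02 in A549 and 0.09 in H2122. The rise for which ABCA1 was singled out was read against these same control arrays. None of the 42 members was called between K78I and pBABE in either line, beside 0% of all genes. At an unadjusted p under 0.05 limma gave 0 members and 472 genes in A549, and 2 members and 1260 genes in H2122. Those 2 members were ABCG1 (−1.05, adjusted p = 0.668) and ABCA4 (0.33, adjusted p = 0.686). Without the 2 arrays against their STK11 label, limma called 9 genes higher and 26 lower between K78I and pBABE in A549, of which 0 were members.

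The levels of ABCA1 and ABCG1 by array show the contrast between these cholesterol exporters. ABCG1 moves cholesterol onto high-density lipoprotein and is another LXR target. In A549 it read 5.82, 5.51 and 5.88 with LKB1, against 4.84, 4.45 and 5.01 with K78I and 5.23, 4.43 and 5.45 with pBABE, so that the groups did not overlap. The effect of 0.84 ± 0.32 (SE) missed the threshold with an adjusted p of 0.135 by limma, and its 95% interval was 0.15 to 1.52. In H2122 the level was 6.78, 7.65 and 7.02 with LKB1, against 6.95, 6.49 and 6.70 with K78I and 6.86 and 8.65 with pBABE. These groups overlapped, the effect was −0.08 ± 0.34 (adjusted p = 0.945), and the highest array was pBABE replicate 2, the one lowest in cell cycle genes. The H2122 effect of ABCG1 turned with the pBABE array left out: it was 0.37 without replicate 2 (adjusted p = 0.496) and −0.53 without replicate 1 (adjusted p = 0.267). With either H2122 pBABE array left out, ABCG1 was called higher in A549 (0.84, adjusted p = 0.0338), since the spread of H2122 enters the shared error.

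**Figure D2:**
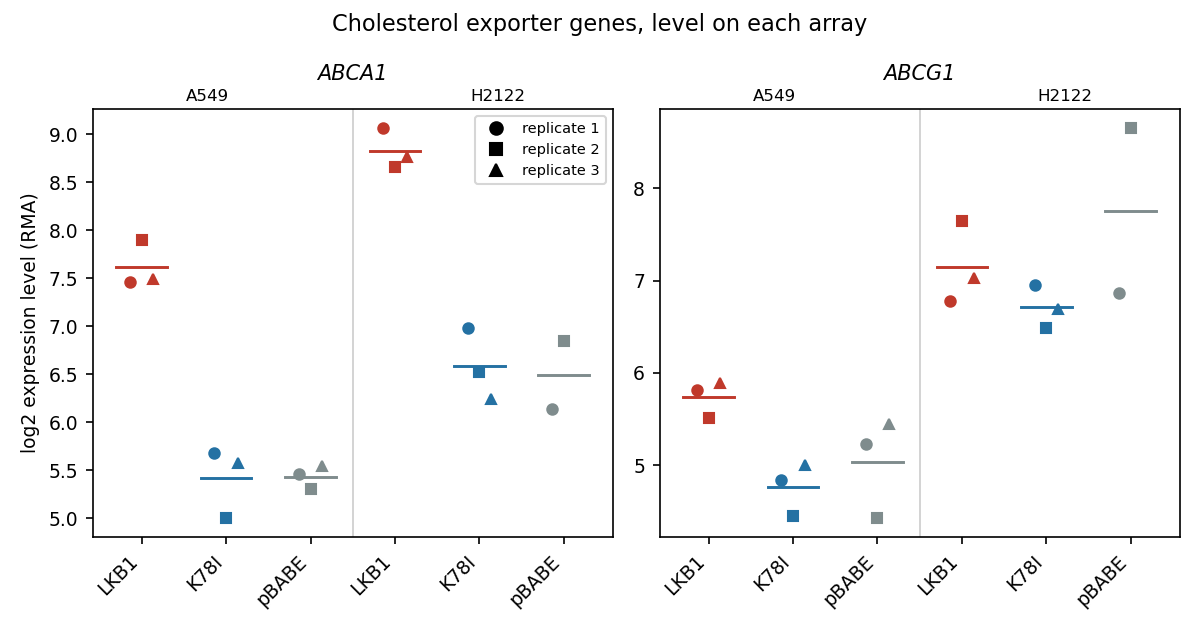
Level of ABCA1 (left) and ABCG1 (right) on each array (log2, vertical axes, which differ and do not start at 0) by line and construct. Each point is an array, its shape gives the replicate number and bars are group means. ABCA1 on the LKB1 arrays lies between 7.46 and 7.90 in A549 and between 8.66 and 9.06 in H2122, above all control arrays of the same line, whereas ABCG1 on the LKB1 arrays lies above all controls in A549 only.

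Promoter sequence could be set beside these levels for 33 of the 42 members, from 250 bases before to 50 after the annotated start (RefSeq, GRCh38.p14). ABCG1 is among the members without one, so its promoter was not searched. For the 10 members with several promoters only the first listed was used. The 3 printed belong to ABCA1 and to ABCA3 and ABCA13, the lipid members called in only 1 line. ABCA1 is at chr9:104928106-104928405 (minus strand), ABCA3 at chr16:2340679-2340978 (minus strand) and ABCA13 at chr7:48171208-48171507 (plus strand). Capitals mark, where found on either strand, the GC box GGGCGG, the E-box CACGTG, the TATA box TATAAA, and a loose form of the direct repeat with 4 spacer bases that LXR and RXR bind, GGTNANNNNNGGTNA, whose second repeat includes the N before the last GGTNA.
ABCA1: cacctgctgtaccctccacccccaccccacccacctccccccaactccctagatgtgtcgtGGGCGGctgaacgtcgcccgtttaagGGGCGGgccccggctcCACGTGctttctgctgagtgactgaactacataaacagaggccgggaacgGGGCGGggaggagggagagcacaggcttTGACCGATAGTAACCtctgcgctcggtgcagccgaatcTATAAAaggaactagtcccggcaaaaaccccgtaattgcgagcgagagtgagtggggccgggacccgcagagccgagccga
ABCA3: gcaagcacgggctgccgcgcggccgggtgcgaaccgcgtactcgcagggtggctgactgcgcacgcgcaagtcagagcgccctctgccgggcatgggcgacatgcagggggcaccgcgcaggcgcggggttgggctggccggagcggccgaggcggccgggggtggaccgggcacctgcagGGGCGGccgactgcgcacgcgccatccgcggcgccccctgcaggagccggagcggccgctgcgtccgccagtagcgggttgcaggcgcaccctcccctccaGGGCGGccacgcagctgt
ABCA13: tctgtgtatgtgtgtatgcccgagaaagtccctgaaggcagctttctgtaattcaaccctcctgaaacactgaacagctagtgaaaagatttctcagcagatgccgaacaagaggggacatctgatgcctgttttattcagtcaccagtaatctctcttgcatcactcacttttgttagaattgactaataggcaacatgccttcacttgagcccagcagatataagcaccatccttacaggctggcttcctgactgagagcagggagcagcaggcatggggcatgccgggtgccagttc
The direct repeat was found in 1 of the 33 member promoters, that of ABCA1, where it reads TGACCGATAGTAACC, the reverse strand of the motif, from position −69 relative to the start, and it was found in 0.656% of 27305 promoters of the same length. The ABCA1 window also held 3 GC boxes, 1 E-box and 1 TATA box, and the motifs marked there do not overlap. The ABCA3 window held 2 GC boxes and none of the other motifs, and the ABCA13 window held none of the 4. GC boxes were in 18 of the 33 member promoters and 44.6% of all promoters, E-boxes in 4 and 7.44%, and TATA boxes in 5 and 12.0%. A match is only a match of letters, and no binding was measured here. That LXR and RXR drive ABCA1 was known beforehand, so the direct repeat in its promoter was no blind find. Its part in the levels was not tested.

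ABCA3 rose with LKB1 in A549 and not in H2122. It carries phospholipid into the lamellar bodies of alveolar type II cells, the store of lung surfactant. In A549 its level was 7.07, 6.66 and 6.94 with LKB1, against 5.86, 5.91 and 6.36 with K78I and 5.92, 5.29 and 5.87 with pBABE. All LKB1 arrays were above all controls, and the effect was 1.02 ± 0.23 (SE), or 2.03-fold, with an adjusted p of 0.0116 by limma. In H2122 the level was 5.08, 4.94 and 4.66 with LKB1, against 5.29, 5.51 and 5.32 with K78I and 5.09 and 6.37 with pBABE. Here all LKB1 arrays were below all controls, although the lowest control, at 5.09, almost met the highest LKB1 array, and the effect of −0.66 ± 0.24 was not called (adjusted p = 0.124).

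The test of the difference between lines called ABCA3, with an effect in A549 minus H2122 of 1.68 ± 0.33 (SE) and an adjusted p of 0.0107 by limma. This call ended when the 3 H2122 arrays with disagreeing labels were left out (1.26, adjusted p = 0.0553). It also ended with K78I alone as the control and with grouping by source name. The call in A549 ended without LKB1 replicate 1 (0.93, adjusted p = 0.0708) or LKB1 replicate 3 (1.00, adjusted p = 0.0621). It ended too with K78I alone as the control (0.85, adjusted p = 0.0823). In H2122 the value was −0.34 (adjusted p = 0.349) without pBABE replicate 2, the array at 6.37, and −0.98 without pBABE replicate 1, which was then called (adjusted p = 0.00431).

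ABCA13 rose with LKB1 in H2122 and showed no such difference in A549. It is one of the largest ABC proteins and has been tied to cholesterol handling inside neurons of mice. In H2122 the level was 5.35, 4.28 and 5.71 with LKB1, against 3.60, 3.33 and 3.47 with K78I and 3.48 and 3.50 with pBABE. The LKB1 arrays differed widely among themselves, with an SD of 0.75 against 0.10 in the controls (n = 3 and 5), but all lay above the controls. The effect was 1.63 ± 0.22 (SE), with an adjusted p of 0.000308 by limma. That fit shares 1 spread over all 6 groups, so the SE understates how far these LKB1 arrays vary, and the p may too. In A549 the level was 3.35, 3.34 and 3.31 with LKB1, against 3.23, 3.45 and 3.18 with K78I and 3.22, 3.32 and 3.29 with pBABE, an effect of 0.05 ± 0.21 (adjusted p = 0.928).

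For ABCA13 the effect in A549 minus that in H2122 was −1.58 ± 0.31 (SE), with an adjusted p of 0.0093 by limma. Together with ABCA3 this made 2 of 41 tested members called for a difference between lines, 4.88% beside 3.6% of all genes (1.63% higher, 1.98% lower). ABCA13 is a dim gene: all its levels except those of H2122 LKB1 replicates 1 and 3 were below 4.83, the mean level under which the dimmest 30% of genes lie. The files give no detection calls, so no fold is given for it. Without the 3 H2122 arrays of disagreeing labels ABCA13 was still called in H2122 (1.34, adjusted p = 0.0139) but the difference between lines was not (−1.29, adjusted p = 0.078). Grouping by source name, which moves the array at 5.71 into K78I, gave 0.53 in H2122 (adjusted p = 0.698).

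**Figure D3:**
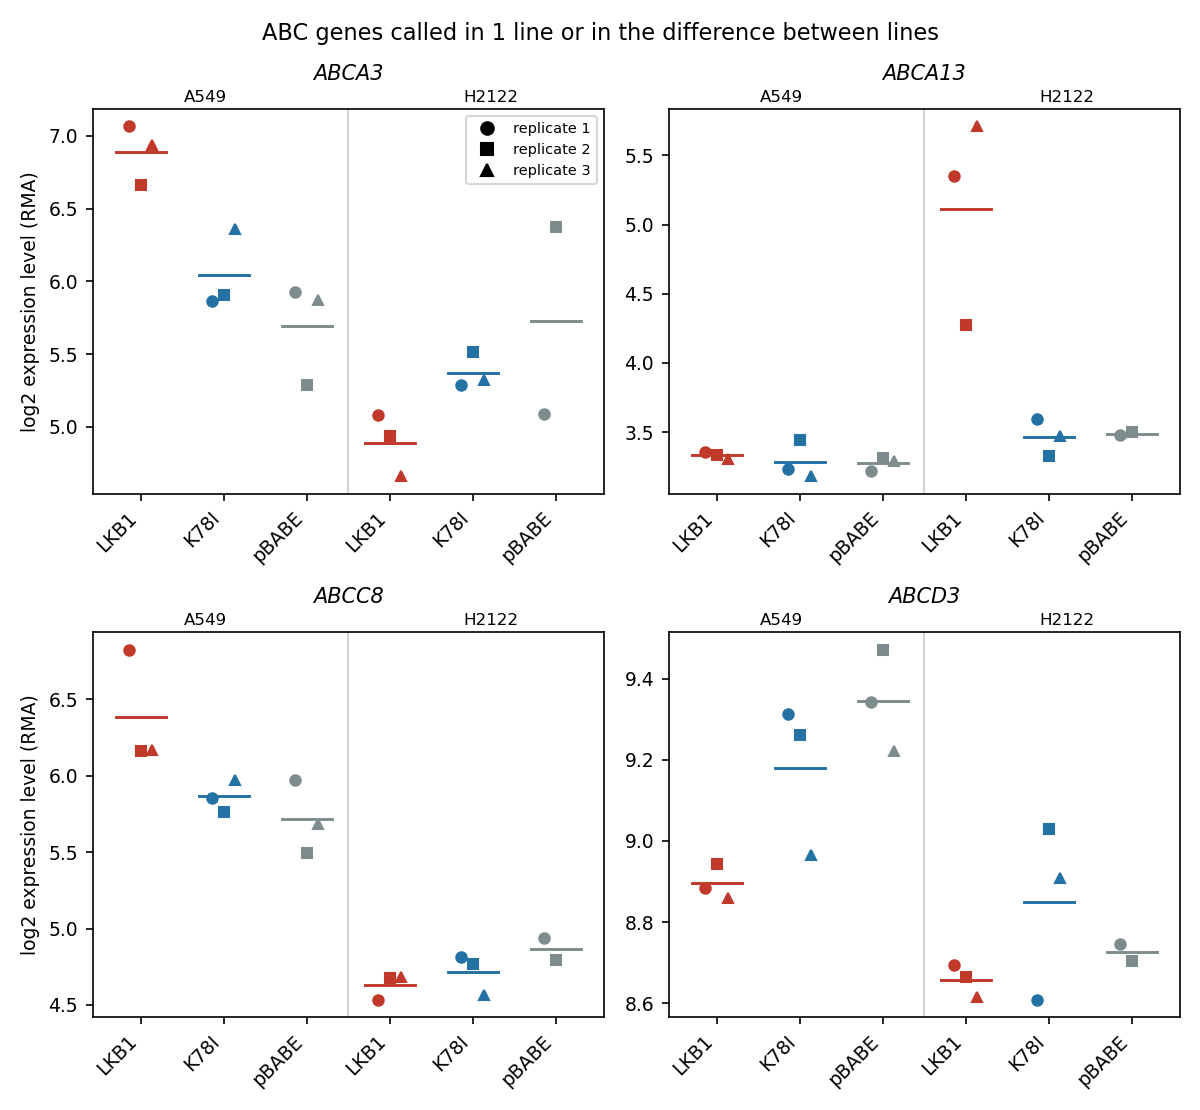
Levels of the 4 members called for an LKB1 effect in a line or for a difference between lines (log2, vertical axes, which differ and do not start at 0) on each array, by line and construct. Bars are group means and point shapes give replicate numbers. ABCA3 is higher with LKB1 in A549, where its arrays lie between 6.66 and 7.07, and ABCA13 in H2122, where they spread from 4.28 to 5.71.

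None of the other 12 tested lipid members was called in either line. ABCA4, the retinal flippase of photoreceptors, had the lowest adjusted p among them in A549, where it read 4.04, 3.92 and 3.84 with LKB1 and 4.04 to 4.39 in the controls, an effect of −0.31 ± 0.10 (adjusted p = 0.0803). ABCA5, which acts in lysosomes, had an effect of −0.41 ± 0.26 in A549 (adjusted p = 0.394) and −0.27 in H2122 (adjusted p = 0.685). ABCA12, which supplies the lipid barrier of skin, had −0.59 ± 0.36 in H2122 (adjusted p = 0.418), where pBABE replicate 2 was highest at 10.36 and the value without that array was −0.38. The 15 lipid members tested had effects of −0.41 to 1.02 in A549 and −0.66 to 1.63 in H2122, with medians of 0.05 and −0.01.

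Other genes of cholesterol handling give the setting of ABCA1. Of 26 measured, 1 was called higher and 1 lower in A549, and 2 higher and 1 lower in H2122. In the mean of both lines 5 were called higher and 3 lower. Of all genes, 8.44% were called in A549, 7.28% in H2122 and 13.6% in the mean. NPC2, which hands cholesterol out of the lysosome, averaged 11.00 with LKB1, against 9.64 with K78I and 9.73 with pBABE, in A549, and 11.88 with LKB1, against 10.56 with K78I and 10.03 with pBABE, in H2122. It rose by 1.32 ± 0.16 in A549 (adjusted p = 9.49e-05) and by 1.59 ± 0.16 in H2122 (adjusted p = 3.14e-05 by limma). NPC2 was thus the 1 gene of this list called in both lines.

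The other calls of the list lay in one line or in the mean. SOAT1, which esterifies cholesterol for storage, fell by 0.47 in A549 (adjusted p = 0.0298). In H2122 the endocytic receptor LRP1 rose by 1.58 (adjusted p = 0.00328) and the fatty acid receptor CD36 fell by 1.53 (adjusted p = 0.000618). LRP1 lost its call without the 3 arrays of disagreeing labels (1.34, adjusted p = 0.118), and SOAT1 without A549 LKB1 replicate 1, 2 or 3 or pBABE replicate 1 or 2 (−0.52 to −0.45, adjusted p of 0.0568 to 0.13). Both also lost it with K78I alone as the control. In the mean of both lines CAV1, the coat protein of caveolae, rose by 1.21 (adjusted p = 0.0114), the lysosomal lipase LIPA by 0.39 (adjusted p = 0.0456) and the sterol carrier STARD4 by 0.28 (adjusted p = 0.0263). There NR1H3, which encodes LXR alpha, fell by 0.46 (adjusted p = 0.0185), and SREBF1, an LXR target that drives fatty acid synthesis, fell by 0.25 (adjusted p = 0.0388). Of the calls in the mean, those of LIPA and SREBF1 were lost in 18 of 28 alternative settings each, that of STARD4 in 10 and that of NR1H3 in 5. That of CAV1 was lost in 2, by source name and with K78I alone as the control. The LXR target MYLIP, which sends the LDL receptor for degradation, was not called (0.12 in A549 and −0.30 in H2122, adjusted p = 0.736 and 0.34).

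Of the 12 members that export drugs, conjugates or bile constituents, limma called none in either line, and 3 in A549 and 0 in H2122 had an unadjusted p under 0.05. Of all 17958 genes, 3908 in A549 and 3461 in H2122 had one. No effect of the exporters stood out from the genes at large by this count. The effects of the 12 exporters ran from −0.58 to 0.92 in A549 and from −0.20 to 0.14 in H2122. ABCB1 is P-glycoprotein, the multidrug pump. In A549 it read 10.09, 8.58 and 9.80 with LKB1, against 8.08, 9.29 and 9.10 with K78I and 8.89, 7.96 and 8.08 with pBABE. LKB1 replicate 2 lay among the controls, and the effect of 0.92 ± 0.35 (SE) had an adjusted p of 0.134 and a 95% interval of 0.17 to 1.68. Without LKB1 replicate 2 it was 1.38 and was called (adjusted p = 0.0322), as it was without the 3 arrays low in cell cycle genes (1.18, adjusted p = 0.0421). In H2122 ABCB1 was 4.12, 3.38 and 3.58 with LKB1, against 4.31, 3.79 and 3.80 with K78I and 4.26 and 3.31 with pBABE, an effect of −0.18 ± 0.37 (adjusted p = 0.874). The difference between the lines' effects was not called (95% interval 0.01 to 2.19, adjusted p = 0.326).

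ABCG2, the breast cancer resistance protein, had the lowest effect of these exporters. In A549 it read 8.10, 7.75 and 7.79 with LKB1, against 8.61, 7.80 and 8.59 with K78I and 8.48, 8.79 and 8.52 with pBABE. Only K78I replicate 2, at 7.80, lay among the LKB1 arrays, and the effect was −0.58 ± 0.30 (adjusted p = 0.273). It was called without the 3 arrays low in cell cycle genes, of which that array is one (−0.75, adjusted p = 0.0201). In H2122 the effect was −0.20 ± 0.31 (adjusted p = 0.821), and pBABE replicate 2, at 7.42, was the lowest array of the line. Without that array the H2122 effect of ABCG2 was −0.63 (adjusted p = 0.143), and without pBABE replicate 1 it was 0.22 (adjusted p = 0.687).

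The ABCC exporters of conjugates and nucleotides had no called effect. ABCC5, which exports cyclic nucleotides and folates, had levels of 7.15, 7.14 and 7.38 with LKB1 in A549, against 7.12, 5.71 and 6.90 with K78I and 6.71, 6.92 and 6.86 with pBABE. The groups did not overlap, by a margin of 0.02, and the effect of 0.52 ± 0.23 was not called (adjusted p = 0.192). ABCC4, which exports prostaglandins and cyclic AMP, had an A549 effect of 0.36 ± 0.14 (adjusted p = 0.136), and ABCC1, which exports glutathione conjugates such as leukotriene C, one of 0.23 ± 0.11 (adjusted p = 0.234). ABCC2, which secretes conjugates into bile, had −0.16 in A549 and 0.10 in H2122, both with an adjusted p over 0.5. The highest of these effects in H2122 was that of ABCC10, at 0.14 ± 0.13 (adjusted p = 0.632).

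**Figure D4:**
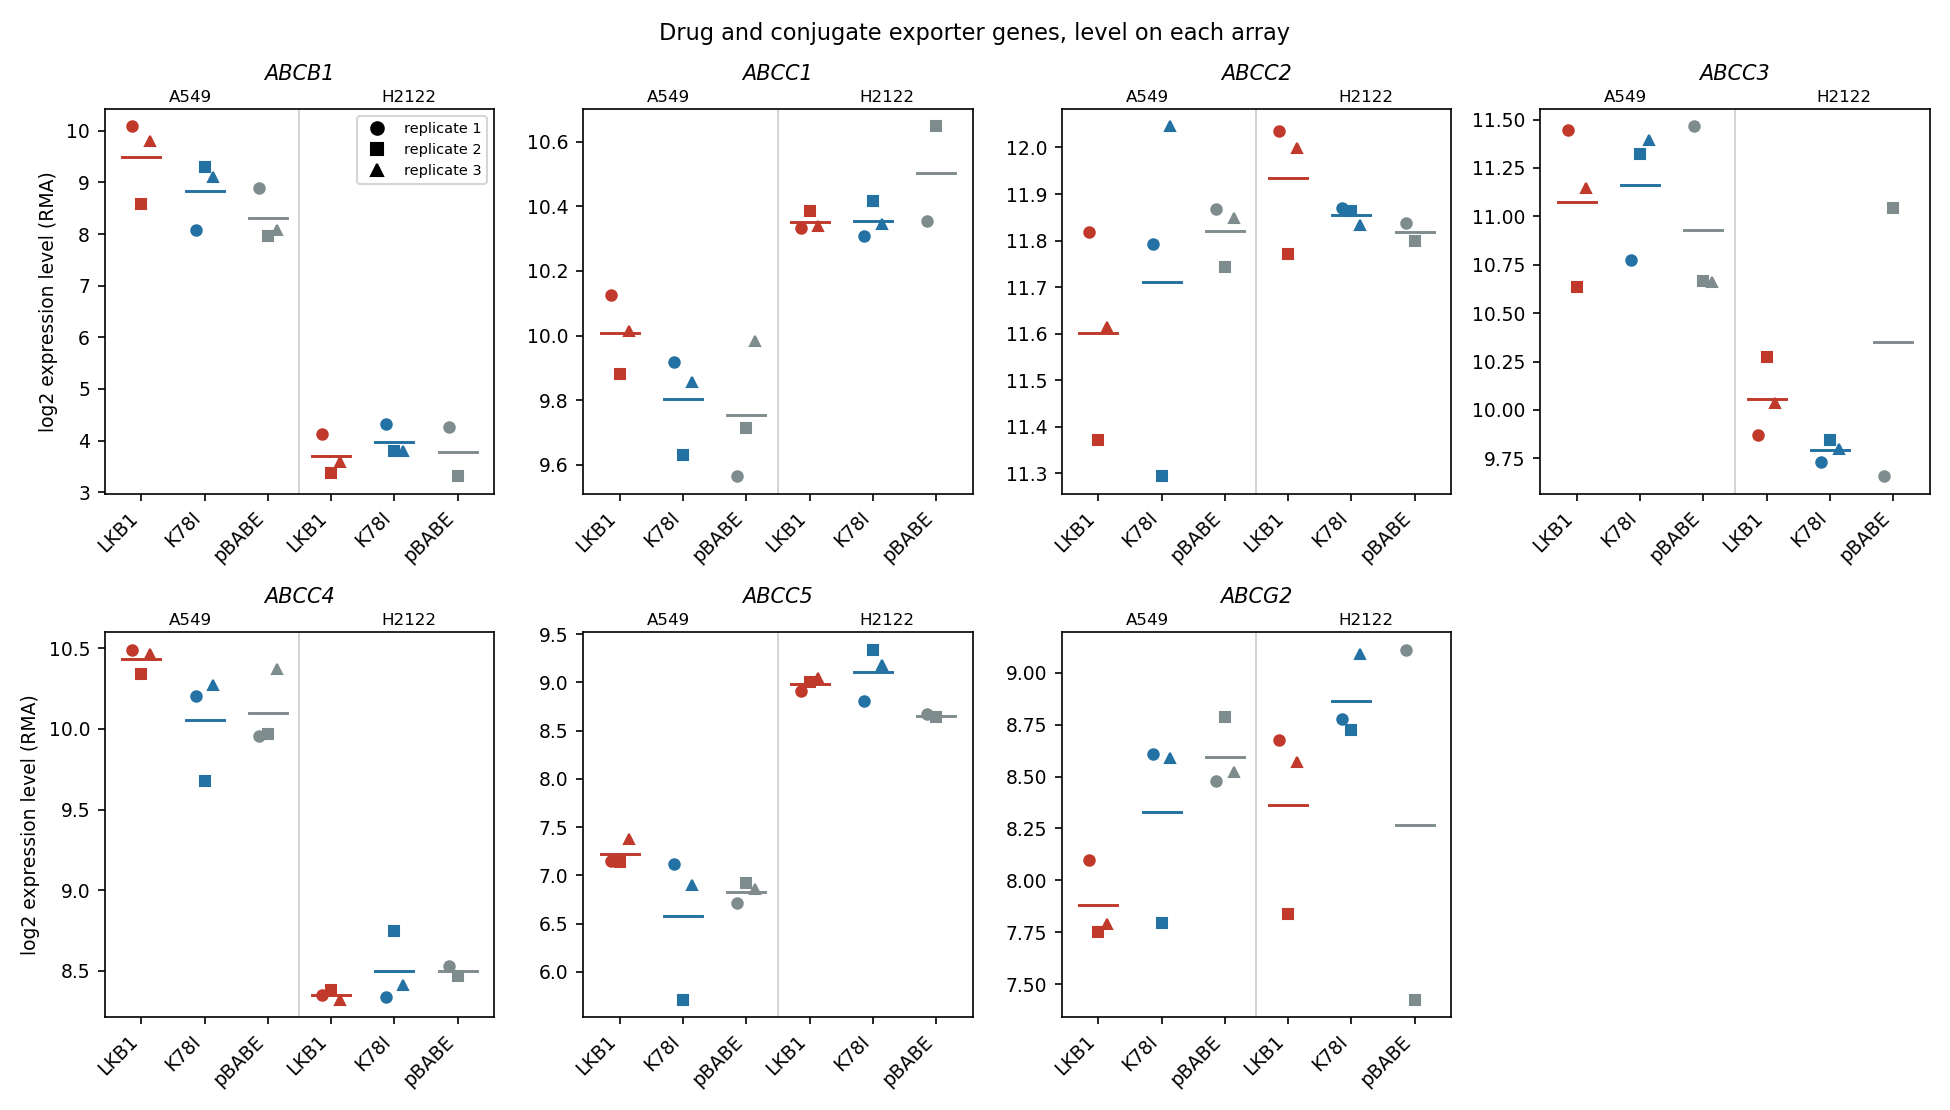
Levels of 7 exporters of drugs and conjugates (log2, vertical axes, which differ and do not start at 0) on each array, by line and construct. Bars are group means and point shapes give replicate numbers. No LKB1 effect was called, whereas ABCB1 lies between 7.96 and 10.09 on the A549 arrays and between 3.31 and 4.31 on the H2122 arrays.

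Other genes of drug handling were read too. Of 24 measured, 1 was called lower in A549, 1 higher and 1 lower in H2122, and 1 lower in the mean. Of all genes, 8.44% were called in A549, 7.28% in H2122 and 13.6% in the mean of both lines. AHR, the aryl hydrocarbon receptor, fell by 1.74 ± 0.38 in A549 (adjusted p = 0.00959 by limma), with means of 8.25 with LKB1, 10.25 with K78I and 9.73 with pBABE. The call was lost without A549 LKB1 replicate 2 (−1.56, adjusted p = 0.0565). In the mean of both lines AHR fell by 0.98 (adjusted p = 0.0261), a call lost in 11 of 28 alternative settings. In H2122 the cytochrome CYP2S1 rose by 1.36 (adjusted p = 0.00557) and the sulfotransferase SULT2B1 fell by 0.77 (adjusted p = 0.0127), and both were called for a difference between lines (A549 minus H2122 −1.79 and 1.21, adjusted p = 0.0152 and 0.0111), calls lost in 7 and 2 of 28 alternative settings. Neither was called in H2122 without the 3 arrays of disagreeing labels (adjusted p = 0.165 and 0.0803), nor with K78I alone as the control.

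The 2 regulators of potassium channels are no exporters. ABCC8, the sulfonylurea receptor SUR1 of pancreatic beta cells, rose in A549. It read 6.82, 6.16 and 6.17 with LKB1, against 5.86, 5.76 and 5.97 with K78I and 5.97, 5.49 and 5.68 with pBABE. All LKB1 arrays were above the controls and the effect was 0.59 ± 0.14 (SE), with an adjusted p of 0.0179 by limma. Without LKB1 replicate 1, the highest array, the value was 0.38 and the call was lost (adjusted p = 0.124). The call was also lost with K78I alone as the control and with a fit per line. In H2122 the effect was −0.16 ± 0.15 (adjusted p = 0.665), and the difference between lines was not called (0.75, adjusted p = 0.0643). That difference was called without the 3 arrays low in cell cycle genes (0.83, adjusted p = 0.0488) and without A549 pBABE replicate 1, which is one of them (0.82, adjusted p = 0.0464). ABCC9, the SUR2 receptor of heart and vessels, had −0.21 in A549 and 0.10 in H2122, and was not called.

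Of the 3 peroxisomal and related members, ABCD3 was called. ABCD3 brings branched-chain and other fatty acids into the peroxisome. In A549 it read 8.88, 8.94 and 8.86 with LKB1, against 9.31, 9.26 and 8.96 with K78I and 9.34, 9.47 and 9.22 with pBABE. The LKB1 arrays were tightly grouped and below all controls, and it fell by 0.37 ± 0.11 (SE; adjusted p = 0.0457 by limma). The H2122 effect was −0.13 ± 0.11 (adjusted p = 0.614), and in the mean of both lines it fell by 0.25 ± 0.08 (adjusted p = 0.0437). These calls lie just under the threshold, and they were lost in 18 of 29 alternative settings in A549 and in 20 of 28 in the mean, including the fit with the replicate number as a block (−0.37, adjusted p = 0.0547, and −0.25, adjusted p = 0.0524). Leaving out any 1 of the A549 LKB1 arrays ended that in A549 (adjusted p of 0.144, 0.0976 and 0.173 for replicates 1, 2 and 3), as did leaving out the 2 arrays against their STK11 label (0.0551), the 3 arrays of disagreeing labels (0.0894) or the 3 low in cell cycle genes (0.0857). In the mean the adjusted p was 0.175 without the arrays of disagreeing labels and 0.0661 without those low in cell cycle genes. ABCD4, which releases cobalamin from lysosomes, had 0.26 ± 0.13 in H2122 (adjusted p = 0.282), and 0.42 without pBABE replicate 2, which was called (adjusted p = 0.0273). ABCD2 had −0.07 in A549 and −0.13 in H2122.

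Among 22 other peroxisomal genes measured, 2 were called higher and 1 lower in A549, and 1 higher and 1 lower in H2122. In the mean 2 were called higher and 1 lower. Of all genes, 8.44% were called in A549, 7.28% in H2122 and 13.6% in the mean. ACOX2, which shortens branched fatty acids and bile acid precursors, fell by 1.28 in A549 (adjusted p = 0.0015) and by 0.84 in the mean (adjusted p = 0.00183). The acyl-CoA synthetase ACSL1 rose by 0.55 in A549 (adjusted p = 0.00622) and the bifunctional enzyme EHHADH by 0.56 (adjusted p = 0.0194). In H2122 the carnitine acetyltransferase CRAT rose by 0.71 (adjusted p = 0.0108) and the import receptor PEX5 fell by 0.50 (adjusted p = 0.0241). In the mean CRAT rose by 0.42 (adjusted p = 0.0173) and EHHADH by 0.38 (adjusted p = 0.0187). The effects of ACSL1 and PEX5 were also called for a difference between lines (A549 minus H2122 0.79 and 0.73, adjusted p = 0.0139 and 0.0332), calls lost in 4 and 14 of 28 alternative settings. In H2122 PEX5 was not called without LKB1 replicate 1 or 3, K78I replicate 2 or 3 or pBABE replicate 2 (−0.50 to −0.37, adjusted p of 0.0521 to 0.14), nor CRAT without LKB1 replicate 2 or 3 (0.67 and 0.70, adjusted p = 0.0542 and 0.0504). In A549 EHHADH was not called without any 1 of the LKB1 arrays (0.54 to 0.57, adjusted p of 0.0718 to 0.0767).

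The 4 mitochondrial and lysosomal members showed no called LKB1 effect in either line or in the mean, and none had an unadjusted p under 0.05 in a line. ABCB9, a peptide transporter of lysosomes, read 5.81, 6.17 and 6.15 with LKB1 in A549, against 5.99, 4.92 and 5.74 with K78I and 5.55, 5.92 and 5.87 with pBABE. Its effect was 0.38 ± 0.18 in A549 and 0.32 ± 0.19 in H2122, and 0.35 ± 0.13 in the mean (adjusted p = 0.0991). ABCB6, a porphyrin transporter, had −0.25 ± 0.19 in A549, and ABCB10, a transporter of the inner mitochondrial membrane, −0.16 ± 0.16 in H2122. The antigen peptide transporters TAP1 and TAP2 and the chloride channel CFTR are ABC proteins under other symbols. Of these, TAP1 was called, and rose by 0.72 ± 0.10 in H2122 (adjusted p = 0.000308) and by 0.41 in the mean (adjusted p = 0.000867), with an A549 minus H2122 difference of −0.62 (adjusted p = 0.0182) whose call was lost in 7 of 28 alternative settings.

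The 4 translation factors of the family all had effects below 0 in both lines, and limma called none. ABCE1 splits ribosomes at the end of translation, and ABCF1 takes part in its start. Their effects were −0.34 to −0.15 in A549 and −0.26 to −0.15 in H2122, and 2 in A549 and 0 in H2122 had an unadjusted p under 0.05, as did 3908 of the 17958 genes in A549 and 3461 in H2122. In the mean of both lines all 4 had one, as did 4763 of all genes, with values from −0.25 to −0.20 and adjusted p of 0.105 for ABCE1, 0.0823 for ABCF1, 0.095 for ABCF2 and 0.17 for ABCF3. In A549 ABCE1 read 9.15, 9.58 and 9.35 with LKB1, against 9.73, 9.67 and 9.55 with K78I and 9.73, 9.72 and 9.76 with pBABE, and only the LKB1 array at 9.58 overlapped the controls. In H2122 ABCF2 was called lower without pBABE replicate 2 (−0.41, adjusted p = 0.0378), and that array, low in cell cycle genes, had the lowest ABCF2 level of the line, 8.48. ABCF1 is covered by 3 probe sets with identical values, and it was counted once. The remaining member, ABCC13, is annotated as a transcribed pseudogene and had 0.09 in A549 and 0.04 in H2122.

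More members were called between the lines than for an LKB1 effect. The same held for all genes, of which 8.44% were called for LKB1 in A549 and 7.28% in H2122. On the control arrays, 21 of 42 members were called between A549 and H2122 (9 higher in A549, 12 lower), or 50% beside 40.3% of all genes (20.3% higher, 20.1% lower). By role, 1 lipid member was higher and 5 lower, 4 exporters were higher and 3 lower, both channel regulators were higher, 1 mitochondrial or lysosomal member was higher and 2 lower, 1 peroxisomal member was higher, and 2 translation factors were lower. The clearest case was ABCB1, at 8.57 ± 0.59 in A549 controls (SD, n = 6) and 3.90 ± 0.41 in H2122 controls (SD, n = 5). The difference of 4.69 ± 0.31 (SE) had an adjusted p of 7.15e-09 by limma. The H2122 mean lay below 4.83, the level that bounds the dimmest 30% of genes, so no fold is given. ABCC4 was 10.08 ± 0.26 in A549 controls and 8.50 ± 0.15 in H2122 controls, a difference of 1.58 (2.99-fold, adjusted p = 4.13e-08).

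Other members higher in A549 differed by 1.00 or less. They were ABCC8 (1.00, adjusted p = 9.75e-06), ABCC3, a conjugate exporter of the basolateral membrane (0.98, adjusted p = 0.00335), ABCA5 (0.97, adjusted p = 0.00235), ABCD3 (0.47, adjusted p = 0.000618), ABCB4, the phosphatidylcholine floppase of bile (0.39, adjusted p = 0.00666), ABCC9 (0.35, adjusted p = 0.00741) and ABCB8 of mitochondria (0.28, adjusted p = 0.0377). For ABCC3 and ABCA5 the A549 and H2122 arrays overlapped, and the H2122 array that reached the A549 range was pBABE replicate 2, at 11.05 for ABCC3 and 6.99 for ABCA5. ABCB8 is the least firm of these, since its call was lost in 11 of 26 alternative settings. Without the 3 arrays of disagreeing labels ABCB4 (0.37, adjusted p = 0.0587), ABCC9 (0.29, adjusted p = 0.0868) and ABCB8 (0.32, adjusted p = 0.0732) were not called. Without the 3 arrays low in cell cycle genes ABCB4 (0.28, adjusted p = 0.0693) and ABCB8 (0.26, adjusted p = 0.0843) were not.

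ABCA12, ABCG1 and ABCC5 were over 4-fold lower in A549 than in H2122. ABCA12 was 6.74 ± 0.67 in A549 controls (SD, n = 6) and 9.56 ± 0.47 in H2122 controls (SD, n = 5), a difference of −2.88 ± 0.30 (SE; adjusted p = 1.41e-06 by limma). ABCG1 was 4.90 ± 0.41 and ABCC5 6.70 ± 0.50 in A549 controls, against 7.13 ± 0.87 and 8.93 ± 0.32 in H2122 controls. Their differences were −2.33 ± 0.28 (adjusted p = 6.17e-06) and −2.18 ± 0.20 (adjusted p = 2.76e-07). For all 3 the control arrays of the lines did not overlap. Over the family they did not overlap for 5 members higher in A549 (13.3% of all genes) and 10 lower (13.2%).

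ABCA1 itself was lower in A549 than in H2122 controls by a difference of −1.11 ± 0.17 (SE; adjusted p = 8.13e-05 by limma), and the LKB1 arrays kept that order at 7.62 in A549 and 8.83 in H2122. The others lower in A549 were ABCB6 (−0.99, adjusted p = 0.000164), ABCA4 (−0.86, adjusted p = 1.47e-06), ABCB9 (−0.71, adjusted p = 0.00187), ABCC1 (−0.65, adjusted p = 4.1e-05), ABCA7 (−0.58, adjusted p = 0.0158), ABCC10 (−0.56, adjusted p = 0.000525), ABCF3 (−0.54, adjusted p = 0.00104) and ABCF1 (−0.29, adjusted p = 0.0274). Among them ABCF1 and ABCA7 lost their call in 7 and 3 of 26 alternative settings, ABCA7 without the 3 arrays of disagreeing labels (−0.28, adjusted p = 0.216) and ABCF1 without the 2 arrays against their STK11 label (−0.27, adjusted p = 0.0622) among these.

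**Figure D5:**
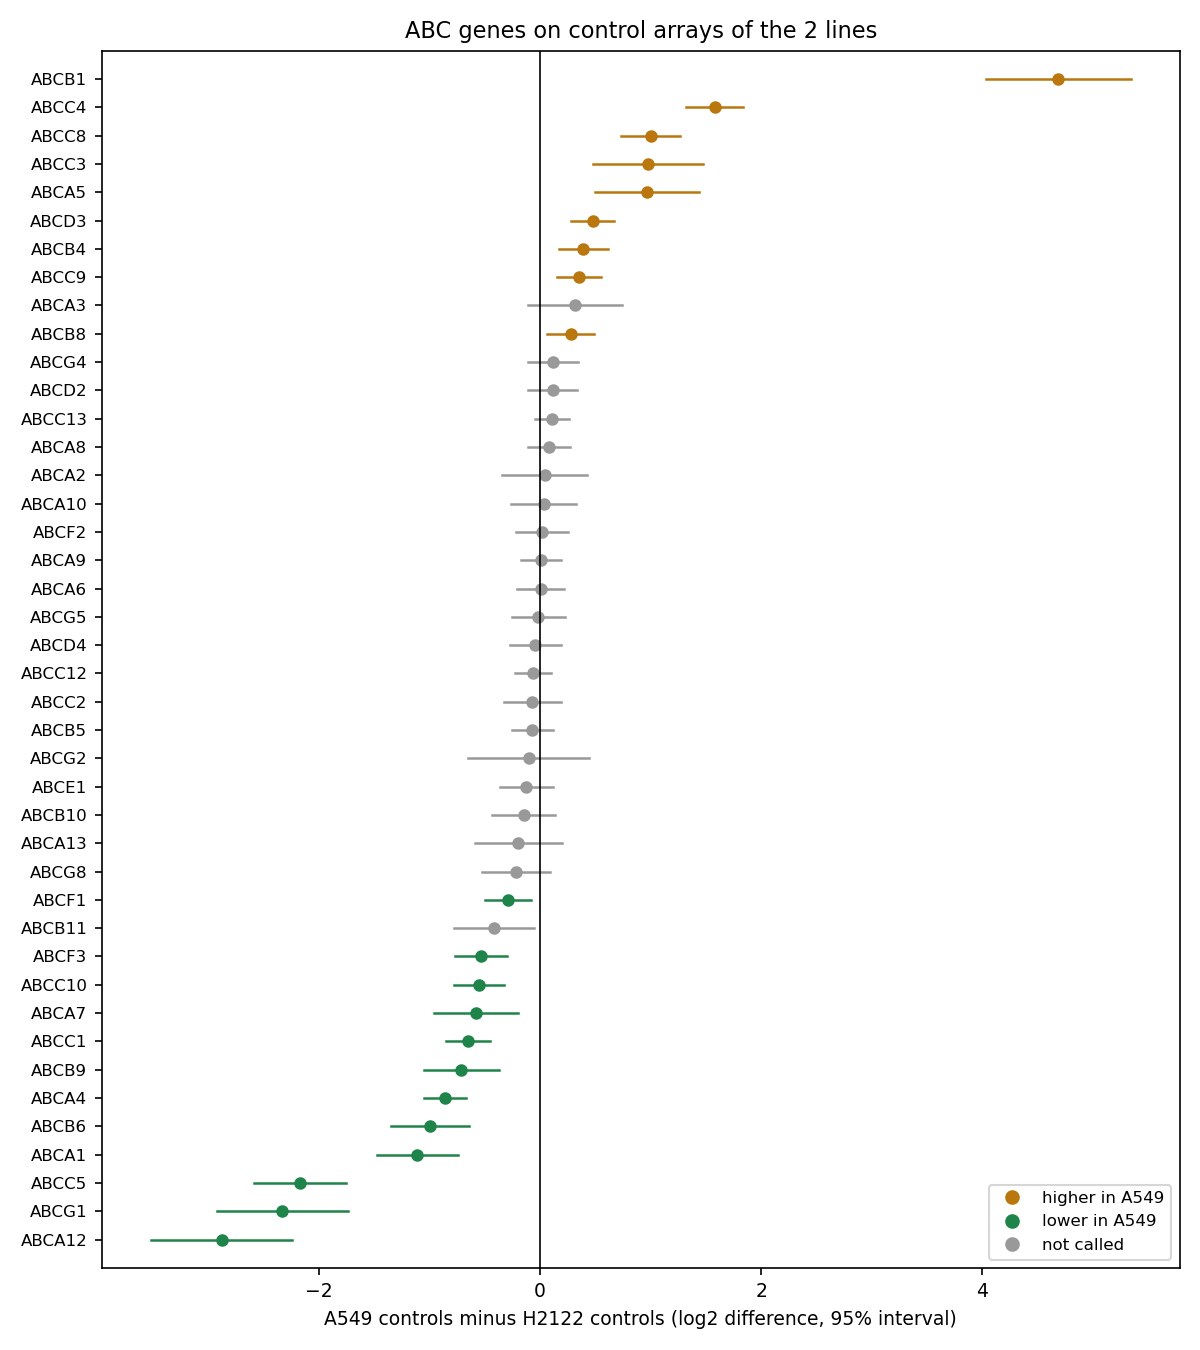
Difference between A549 and H2122 control arrays (K78I and pBABE, log2 difference, horizontal axis) for all 42 ABC genes, with 95% intervals and the genes in order of the difference. Orange genes were called higher in A549, green genes lower, and grey genes were not called. ABCB1 stands at 4.69 and ABCA12 at −2.88.

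Genes around the family also differed between the control arrays of the lines, as did 40.3% of all genes (20.3% higher in A549, 20.1% lower). The cholesterol, drug handling and peroxisomal lists held 26, 24 and 22 measured genes. Of the cholesterol list 5 were higher in A549 and 10 lower, led by CD36 (−5.76, adjusted p = 2.01e-12), PLTP, a phospholipid carrier of plasma (−4.81, adjusted p = 1.04e-10), and RXRA, the partner receptor of LXR (−1.74, adjusted p = 4.05e-09). MYLIP (−1.41, adjusted p = 4.91e-07) and SREBF1 (−0.64, adjusted p = 3.52e-05) were lower in A549 as well, while the sterol carrier STARD3 was higher (0.54, adjusted p = 1.3e-05). Of the drug handling list 6 were higher and 7 lower, and of the peroxisomal list 6 and 6. TAP2 was lower in A549 (−1.26, adjusted p = 7.04e-08).

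Markers of epithelium and of other cell types were read as list means. The mean over 5 epithelial markers was 9.03 to 9.65 on the A549 LKB1 arrays and 9.39 to 9.87 on the A549 controls, and 11.11 to 11.38 on the H2122 LKB1 arrays and 11.06 to 11.30 on the H2122 controls. Over all arrays, 5 leukocyte markers averaged 4.76 to 5.23, 4 endothelial markers 3.73 to 4.38 and 4 fibroblast markers 3.46 to 3.76. The epithelial cadherin CDH1 fell by 1.17 in A549 (adjusted p = 0.011 by limma), beside the calls of ABCA3, ABCC8 and ABCD3 there. The adhesion molecule PECAM1 fell by 0.79 in H2122 (adjusted p = 0.0116), beside that of ABCA13. Their part in these results was not tested.

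Some arrays carried more extreme values of the family than others. H2122 pBABE replicate 2 was the highest or lowest of its line for 19 of 42 members and H2122 pBABE replicate 1 for 17, out of 8 arrays. Among the 9 arrays of A549, K78I replicate 2 was extreme for 16 members and the others for 4 to 13. The H2122 control mean of pBABE thus rests on a pair of arrays that lay apart, and K78I minus pBABE in H2122 called 4 members once pBABE replicate 1 was left out (ABCA3, ABCC3 and ABCG1 lower, ABCG2 higher), or 9.52% of 42, beside 1041 of all genes (5.8%).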

How the data were processed

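Total RNA of each sample (130 ng per labelling reaction, per the labels' protocols) was hybridised to 1-colour arrays. The deposited values are log2 expression levels that the authors made with Affymetrix Expression Console 1.1 by RMA, per the submitters' processing notes, so background correction, quantile normalization and probe summary were done before deposit. Array medians of the deposited log2 values lay between 5.62 and 5.73. Arrays hold no read depth, and their number limits the precision.

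Of 33297 probe sets, 19181 had a single gene symbol, 2055 had several and 12061 were unnamed in the platform table used here. The brightest probe set of each of 17958 genes was kept (895 had more than 1), and all 42 members matched RefSeq by gene ID. Groups were taken from sample titles. limma 3.58.1 in R 4.3.3 (lmFit, eBayes) was fitted to 6 groups with 11 residual degrees of freedom per gene, with Benjamini-Hochberg adjustment over all genes. Named were ABCA1, STK11, every called member, the members with the largest effects in each role group, and called genes of 4 lists (cholesterol, drug handling, peroxisome, relatives). For these lists in the comparison of lines, the text names those of the cholesterol and relatives lists only. Members and lists were chosen with earlier results of these data known.

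Alternatives were the replicate number as a block, grouping by source name, leaving out arrays, genes or label conflicts, median centring, averaged probe sets, array weights, a fit per line and either control alone. Leaving out the 2 arrays against their STK11 label, or the 3 low in cell cycle genes, was added after seeing the data. On simulated data, 200 of 17958 genes were changed. Of shifts of 0.5, 1 and 2, the fit recovered 38.8%, 77.6% and 97.0% in the A549 LKB1 effect. In H2122 it recovered 26.9%, 73.1% and 92.4%, and in their difference 7.46%, 50.8% and 90.9%. False calls were 4.05%, 6.57% and 8.33% of the calls, in that order. The simulation gave all groups of a gene the same spread and changed fewer genes than the data called, so its rates may not hold for the data.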

Additional observations from a re-analysis of the deposited data

Results flagged for a closer look

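The LKB1 effect on 2 members differed between the lines by the test of the difference itself, over the LKB1 effect of the same contrast in each line. For ABCA3 the effect in A549 minus that in H2122 was 1.68 (1.02 in A549 and −0.66 in H2122, limma adjusted p = 0.0107): all 3 LKB1 arrays lay above the controls in A549, and all 3 lay below them in H2122. For ABCA13 it was −1.58 (0.05 in A549 and 1.63 in H2122, limma adjusted p = 0.0093). Its LKB1 arrays overlapped the controls in A549, and all 3 lay above them in H2122. For ABCA3 in H2122 the lowest control, at 5.09, almost met the highest LKB1 array, at 5.08, and the effect was not called. Of all genes, 15.1% in A549 and 17.4% in H2122 had no overlap of LKB1 and control arrays. The ABCA3 difference was not called with K78I alone as the control. Neither difference was called when the 3 H2122 arrays with disagreeing labels were left out.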

How the results depend on the processing

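The count of tested members called for an LKB1 effect in A549 was 3, and it was 0 to 4 with 1 array left out, 14 with array weights, 1 with a fit per line and 0 with K78I as the control, where 3.98% to 10.7%, 21.4%, 4.87% and 5.25% of all genes were called. In H2122 it was 1, and it was 1 to 3 with 1 array left out, 0 by source name, 0 without the dimmest 30% of genes (ABCA13 is then not tested), 2 with array weights and 3 without the 3 arrays low in cell cycle genes, where all genes gave 4.2% to 9.53%, 0.00557%, 10%, 12.6% and 13.1%. In the mean of both lines it was 2, and it was 1 to 6 with 1 array left out, 4 by source name, 1 without dim genes, 7 with array weights, 1 with K78I and 1 with pBABE as the control, and 6 without the 3 arrays low in cell cycle genes, where all genes gave 9.53% to 15.4%, 4.87%, 19.1%, 23.7%, 8.34%, 9.96% and 19.8%. The difference between lines called 2 members, and 2 to 3 with 1 array left out, 0 by source name, 0 without the 3 arrays of disagreeing labels, 1 without dim genes, 4 with array weights and 1 with K78I as the control, where all genes gave 1.73% to 4.84%, 0.974%, 1.16%, 4.44%, 9.5% and 1.65%. The control arrays of the lines gave 21 calls, and 19 to 23 with 1 array left out. K78I minus pBABE gave 0 calls in each line, and with 1 array left out 0 in A549 and 0 to 4 in H2122, where all genes gave up to 0.0111% and 5.8%. Where H2122 pBABE was left with a lone array, that array was assumed to vary like the other groups. No direction of a called value reversed in the alternatives run. The ABCA1 effect ran from 2.05 to 2.27 in A549 and from 1.38 (by source name) to 2.47 in H2122. After group means were taken off, same-numbered arrays of A549 correlated from −0.64 to 0.35 and differently numbered ones from −0.52 to 0.64. In H2122 same-numbered arrays correlated from 0.06 to 0.42 and differently numbered ones from −0.42 to 0.13. The 2 H2122 pBABE arrays mirror each other once their mean is taken off, so 0.42 and −0.42 are 1 value with its sign turned. Between LKB1 and K78I, same-numbered arrays of H2122 correlated from 0.064 to 0.295 and differently numbered ones from −0.301 to 0.06. Taking off means ties these values together, so the ranges are not independent. Any likeness of same-numbered arrays is left out of the main fit, since it did not take the numbers as pairs. With the replicate number as a block 2 members were called in A549, 1 in H2122, 1 in the mean, 2 in the difference and 21 between the lines, and ABCD3 lost its call in A549 and in the mean. The causes of these shifts were not tested. Low signal limits what can be measured for the 15 members among the dimmest 30% of genes.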
